A study of Danio rerio with 18 samples.

Results

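The zebrafish genes nppa (ENSDARG00000052960) and nppb (ENSDARG00000052958) encode natriuretic peptides of the heart, and their 2 rows, of 28298 gene rows in all, were followed through all 18 libraries. The rows were taken by gene ID and symbol. RNA came from embryo cells sorted on GFP, and it was sequenced to profile cardiomyocytes while the heart develops. At 72 hours post fertilization (hpf) the GFP-positive groups carried the gata5, tbx5 or hand2 background or were wild type, and wild-type cells were also taken at 24 and 48 hpf. Every condition, 6 in all, gave 2 libraries of GFP-positive cells and 1 of GFP-negative cells, the rest of the embryo. The labels name the gene of a background but neither its allele nor whether embryos were homozygous, and they do not name the promoter behind GFP. Nor do they say that replicates 1 and 2 came from separate pools of embryos, so every p-value measures the spread between these libraries, which may be technical.

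Natriuretic peptides are hormones that heart muscle cells make as longer precursors and secrete, in larger amounts when the wall of the heart is stretched. Proteases trim the precursors, and the mature peptides act on receptors that make cyclic GMP, while a clearance receptor and further proteases remove them from the circulation. In vertebrate embryos the peptide genes come on with the working muscle of the atrium and ventricle and stay low in the canal between them, which is why nppa is widely used as a marker of chamber muscle. In the gene order of RefSeq (assembly GRCz12tu), nppb and nppa are direct neighbours on chromosome 8, with another peptide gene, nppal, beyond nppb and the chloride transporter gene clcn6 beyond nppa. The counts were made on build GRCz10, so no coordinates are given.

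The libraries held 5705157 to 32141901 counts. Replicates of a GFP-positive group correlated across genes, which are not independent replicates, with r of 0.742 (wild type, 72 hpf) to 0.944 (hand2) on a log2 scale. Transcripts of 13 cardiac sarcomere gene rows, summed as a measure of heart muscle in a sort, reached 225 to 5424 CPM in GFP-positive libraries, against 125 to 287 CPM in GFP-negative libraries. CPM, the counts scaled to a common library size, include the TMM factor, a correction for library composition. The lowest of the GFP-positive values belonged to gata5 replicate 2 and lay inside the GFP-negative range. In GFP-negative libraries tpm4a and actc1a made up 79.1 to 92.7% of this sum, and over the other 11 genes gata5 replicate 2 had 94.2 CPM, against at most 58.9 CPM in GFP-negative libraries. GFP-positive libraries also carried much RNA of xanthophores, which are yellow pigment cells: 9 of their marker genes summed to 203 and 435 CPM at 24 hpf and to 9914 to 37468 CPM in the 10 later libraries, against 90.8 to 398 CPM in GFP-negative libraries. The HAND2 transcript stood at 2.56 and 0 CPM in hand2 GFP-positive cells, against 47.2 and 45.8 CPM in wild type at 72 hpf. GATA5 was still read in gata5 cells (17.1 and 14 CPM, against 22.1 and 37.3 CPM in wild type), and so was TBX5 in tbx5 cells (15.5 and 5.18 CPM, against 15.4 and 21.7 CPM), so these transcripts do not check those labels.

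Nearly all reads of both peptide genes came from GFP-positive cells. nppa had 9079 counts over the 12 GFP-positive libraries and 1 count over the 6 GFP-negative libraries. Its level ran from 2.11 to 125 CPM in GFP-positive libraries (median 19.0), against 0 in 5 GFP-negative libraries and 0.0921 CPM in the wild-type library of 48 hpf. No GFP-positive library was without nppa, and the fractions did not overlap. The share of all genes whose fractions separate in this way was not computed. Pooled over libraries, the nppa level was 2664-fold that of GFP-negative cells, with a 95% counting interval of 478 to 105219 that rests on the single GFP-negative read. edgeR's quasi-likelihood test within condition gave a log2 fold change of 10.68 ± 0.95 (SE, adjusted p = 2.59e-06, n = 12 and 6), the gene's p being number 36 in rank among 21729 genes. In this comparison 29.3% of all tested genes were called at a Benjamini-Hochberg adjusted p under 0.05, with 12.4% of all tested genes higher and 16.9% lower.

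nppb was the more sparsely read of the pair. The gene had 1769 counts in GFP-positive libraries and 13 in GFP-negative libraries, and 3 of the 12 GFP-positive libraries had none. The level reached 29.6 CPM in GFP-positive libraries (median 3.14), against at most 1.01 CPM in GFP-negative libraries, so the fractions overlapped: the hand2 GFP-negative library (1.01 CPM) lay above gata5 replicate 1 (0.452 CPM) and above the 3 GFP-positive libraries at 0. Of the 13 GFP-negative reads, 10 lay in the hand2 library, 2 in the tbx5 library and 1 in wild type at 24 hpf. Pooled over libraries, the nppb level was 39.9-fold that of GFP-negative cells (counting interval 23.3 to 75.1), and the edgeR log2 fold change was 5.16 ± 1.42 (adjusted p = 0.0116, n = 12 and 6). With libraries scaled to their summed sarcomere counts in place of all genes, nppa kept its call at 7.84 ± 1.67 (adjusted p = 1.11e-05) and nppb lost it at 2.52 ± 1.91 (adjusted p = 0.208).

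In every condition the nppa level was higher in the GFP-positive cells. With no GFP-negative read, a bound was set against 3 counts in the GFP-negative library. By this bound nppa pooled over 2 replicates was 22.5-fold higher at 24 hpf, 40.8-fold in gata5 and 62.8-fold in tbx5. The bound was 243-fold in hand2 and 84.8-fold in wild type at 72 hpf. Lower limits of the 95% counting interval fell below these bounds. They were 18.2 at 24 hpf, 33.0 in gata5, 50.8 in tbx5, 197 in hand2 and 68.9 in wild type at 72 hpf. Replicates 1 and 2 held 29 and 256 nppa counts at 24 hpf and 269 and 29 in gata5. Taken alone, the lower of the 2 lies below the pooled bound. At 48 hpf, with 1 GFP-negative read, the ratio was 1031 (counting interval 185 to 40736). For nppb the ratio was 6.64 at 24 hpf (1.1 to 272), 37.6 in tbx5 (10.2 to 313) and 25.2 in hand2 (13.7 to 52.7). Set against 3 counts, nppb was 34.1-fold higher at 48 hpf (lower limit 27.5) and 7.21-fold higher in wild type at 72 hpf (lower limit 5.79). All nppb reads behind the values of 24 hpf and of wild type at 72 hpf came from replicate 2, since replicate 1 had 0 counts there. In gata5 cells nppb had 5 counts in GFP-positive and 0 in GFP-negative libraries, too few for a fold. A bound set at 3 counts depends on the depth of the GFP-negative library, and the test of whether the GFP effect differed between conditions did not call nppa (F = 0.0852) or nppb (F = 0.514), each at an edgeR adjusted p = 1, with 1.84% of 26357 genes called. nppa had 0 reads in 5 of the 6 GFP-negative libraries and nppb in 3. With so few reads this test cannot tell whether the GFP effect was alike in all conditions.

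**Figure D1:**
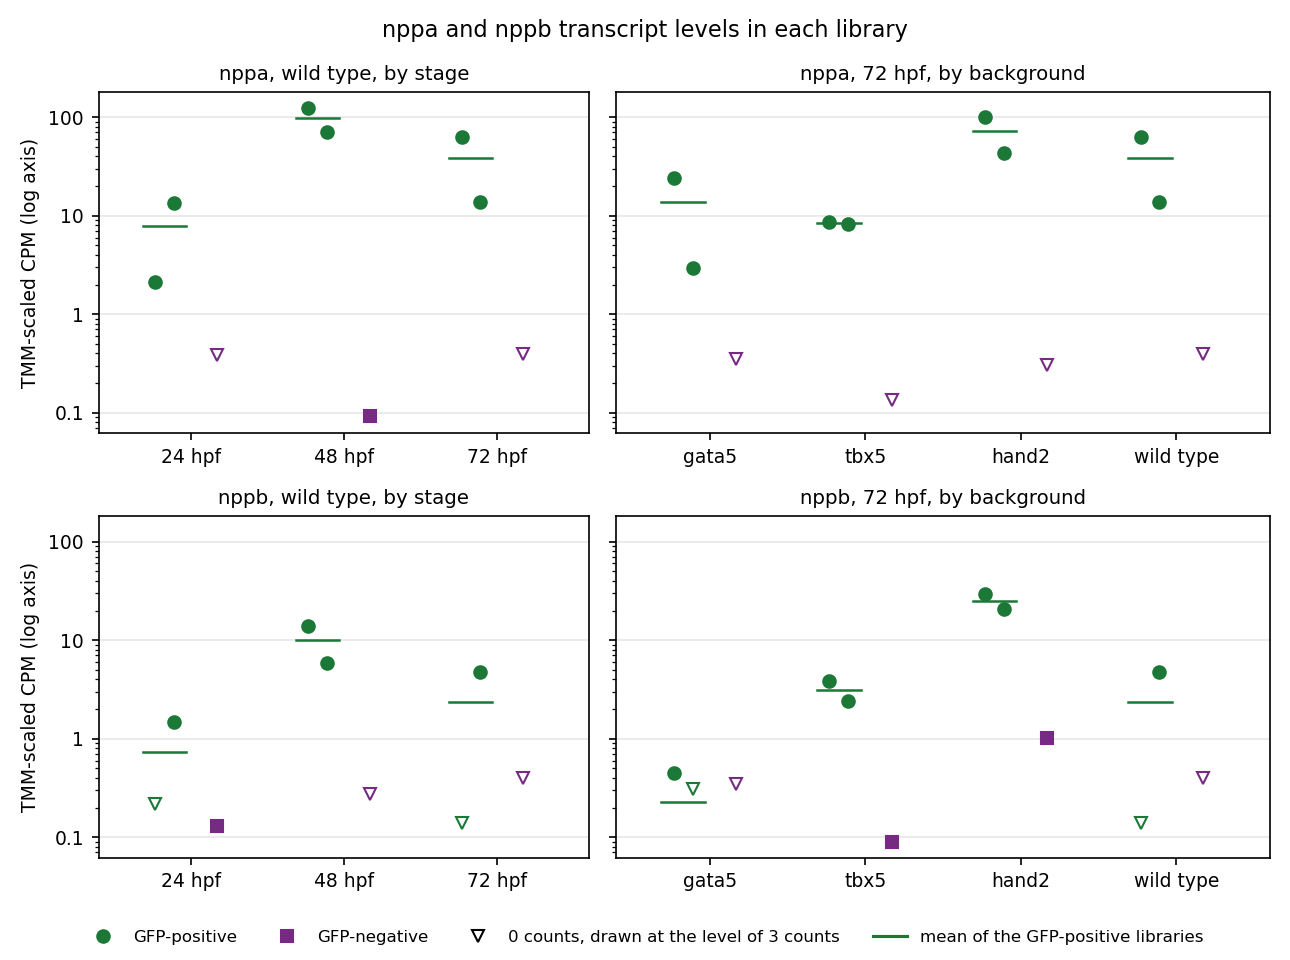
Level of nppa (top) and nppb (bottom) in every library, as TMM-scaled CPM on a log axis, by stage in wild type (left) and by background at 72 hpf (right). Green circles are GFP-positive libraries with their mean as a line, purple squares are GFP-negative libraries, and open triangles are libraries with 0 counts, drawn at the level that 3 counts would give. All 12 GFP-positive nppa values lie above the GFP-negative ones, and the share of all genes that do so was not computed. The highest nppa value is at 48 hpf (125 CPM) and the lowest at 24 hpf (2.11 CPM), and nppb is highest in hand2 (29.6 and 20.8 CPM).

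In wild-type GFP-positive cells nppa was low at 24 hpf, highest at 48 hpf and in between at 72 hpf. Replicates 1 and 2 had levels of 2.11 and 13.4 CPM in the 24 hpf group, 125 and 71.4 CPM in the 48 hpf group, and 63.2 and 13.6 CPM in the 72 hpf group. The libraries of the 3 stages did not overlap, but at 72 hpf the lower library stood barely above the higher one of 24 hpf. What share of all genes separates in this way with 2 libraries per stage was not computed. Group means were 7.77 ± 8.01 CPM at 24 hpf, 98.3 ± 38.1 CPM at 48 hpf and 38.4 ± 35.1 CPM at 72 hpf (SD, n = 2 each). The edgeR test did not call 48 against 24 hpf (log2 fold change 3.61 ± 1.25, 95% interval 0.73 to 6.50, adjusted p = 0.112), in a comparison with 13.4% of 23767 genes called. That call depends on the tool: DESeq2 (adjusted p = 0.00225), limma on the deposited log2 values (adjusted p = 0.0181) and edgeR without a filter on low counts (adjusted p = 2.04e-11) called it. Neither 72 against 48 hpf (−1.33 ± 1.14, adjusted p = 0.695, 0.488% of genes called) nor 72 against 24 hpf (2.28 ± 1.19, adjusted p = 0.241, 15.7% called) was called, and without the filter 72 against 24 hpf was (adjusted p = 2.13e-05). The edgeR test over the 3 stages together gave F = 4.25 (adjusted p = 0.189, 15.6% called).

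nppb was also highest at 48 hpf and was split between the replicates at the other stages. Its level was 0 and 1.47 CPM at 24 hpf, 14 and 5.85 CPM at 48 hpf, and 0 and 4.76 CPM at 72 hpf. Both 48 hpf libraries were above the other 4, while at 24 and 72 hpf the first replicate had no nppb read at all. How many of all genes separate in this way was not computed. At 72 hpf that library held 1361 nppa counts, and 3 nppb counts in it would have been 0.139 CPM, against the 153 counts of replicate 2. The edgeR log2 fold changes were 3.68 ± 2.03 for 48 against 24 hpf (adjusted p = 0.298), −2.02 ± 1.88 for 72 against 48 hpf (adjusted p = 0.721) and 1.65 ± 1.89 for 72 against 24 hpf (adjusted p = 0.614), none of them called, nor the 3 stages together (F = 1.87, adjusted p = 0.380). Without the filter on low counts 48 against 24 hpf was called (adjusted p = 0.0310), and so were the 3 stages together (adjusted p = 0.0497), as they were without replicate 2 of 72 hpf (adjusted p = 0.0240). Leaving out that library also turned 72 against 24 hpf to −6.78.

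Sums of markers of other cell types moved in the same libraries, and their part in the result was not tested. At 24, 48 and 72 hpf in turn the xanthophore sum was 203 to 435, 35305 to 37468 and 9914 to 17852 CPM, while 7 erythrocyte genes summed to 15262 to 17573, 1037 to 1356 and 553 to 565 CPM and 7 endothelial genes to 2238 to 3508, 113 to 146 and 139 to 261 CPM. In the same order 12 skeletal muscle genes summed to 203 to 268, 1809 to 2001 and 1776 to 4515 CPM, 10 neural genes to 101 to 156, 571 to 631 and 642 to 771 CPM, 7 liver genes to 22.5 to 34.2, 166 to 198 and 1565 to 2122 CPM, and 9 leukocyte genes to 806 to 1183, 223 to 462 and 527 to 721 CPM. In bulk RNA a smaller share of heart muscle cells and less transcript in each of them cannot be told apart. Set against the sarcomere transcripts, nppa had 1.06 and 5.89 counts per 1000 sarcomere counts in the 24 hpf libraries, 23.1 and 15.9 in those of 48 hpf, and 35.0 and 13.7 in those of 72 hpf. All 4 later libraries were above both of 24 hpf, and the share of all genes that separate in this way was not computed. The mean log2 ratio of the later libraries exceeded that of 24 hpf by 3.01. The two-sided exact permutation p was 0.0667, the smallest that 4 against 2 libraries can give (adjusted p = 0.4 over 6 ratio tests). With this scaling the edgeR log2 fold changes of 72 against 48 hpf turned to 0.32 for nppa (adjusted p = 0.846) and 0.29 for nppb (adjusted p = 0.943). nppb had 0 and 0.644 per 1000 sarcomere counts in the 24 hpf libraries, 2.58 and 1.31 in those of 48 hpf, and 0 and 4.77 in those of 72 hpf.

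At 72 hpf nppa ranged widely over the backgrounds, its highest library in hand2 and its lowest in gata5. The 3 backgrounds are compared with the same 2 wild-type libraries, so these comparisons share them. nppa stood at 24.3 and 2.97 CPM in gata5, 8.53 and 8.15 CPM in tbx5 and 99.98 and 43.3 CPM in hand2, against 63.2 and 13.6 CPM in wild type. Both tbx5 libraries were below both wild-type libraries, while gata5 and hand2 overlapped wild type. The share of all genes that separate as in tbx5 was not computed. The means were 13.7 ± 15.1, 8.34 ± 0.27 and 71.7 ± 40.1 CPM in gata5, tbx5 and hand2, against 38.4 ± 35.1 CPM in wild type (SD, n = 2 each). By edgeR no background was called against wild type: the log2 fold change was −1.5 ± 1.16 in gata5 (adjusted p = 0.688, 0.105% of genes called), −2.21 ± 1.18 in tbx5 (adjusted p = 0.617, 0.0463% called) and 0.90 ± 1.13 in hand2 (adjusted p = 0.852, 0.0505% called). The intervals are wide, from −4.93 to 0.52 for tbx5. As single libraries were left out, gata5 ranged from −3.72 (without gata5 replicate 1) to −0.02 (without wild-type replicate 1), tbx5 from −2.94 (without wild-type replicate 2) to −0.72 (without wild-type replicate 1) and hand2 from 0.17 (without hand2 replicate 1) to 2.40 (without wild-type replicate 1), and without the filter on low counts the tbx5 difference was called with all libraries (adjusted p = 5.84e-04).

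nppb had its highest levels in hand2. Its level was 0.452 and 0 CPM in gata5, 3.88 and 2.41 CPM in tbx5 and 29.6 and 20.8 CPM in hand2, against 0 and 4.76 CPM in wild type. Both hand2 values lay above all 10 other GFP-positive libraries, but the share of all genes that do so was not computed. The 2 gata5 libraries together held 5 nppb counts, against 298 nppa counts. The edgeR log2 fold changes against wild type were −3.34 ± 2.12 in gata5 (adjusted p = 0.581), 0.39 ± 1.82 in tbx5 (adjusted p = 1) and 3.39 ± 1.98 in hand2 (adjusted p = 0.594), and none was called. The wild-type replicates differ so much that the sign can hang on 1 library: without wild-type replicate 2, gata5 turned to 5.09, and without wild-type replicate 1, tbx5 turned to −0.61. Without tbx5 replicate 1 the tbx5 value was −0.01. The hand2 value was 2.40 without wild-type replicate 1 and 11.83 without wild-type replicate 2.

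Among the backgrounds themselves the widest gap was in nppb between gata5 and hand2. That log2 fold change was −6.74 ± 2.40 (95% interval −11.97 to −1.5), and it was not called by edgeR after adjustment (adjusted p = 0.640, 0.00842% of genes called), whereas without the filter on low counts it was (adjusted p = 0.00131). nppb differed by −3.73 ± 2.15 between gata5 and tbx5 (adjusted p = 0.855, 0.0379% called) and by −3.0 ± 1.95 between tbx5 and hand2 (adjusted p = 1, 0.00421% called). For nppa these edgeR differences were −2.40 ± 1.19 for gata5 against hand2 (adjusted p = 0.855), 0.71 ± 1.15 for gata5 against tbx5 (adjusted p = 1) and −3.11 ± 1.22 for tbx5 against hand2 (adjusted p = 1). Without the filter, gata5 against hand2 (adjusted p = 7.92e-05) and tbx5 against hand2 (adjusted p = 1.33e-07) were called for nppa. Without gata5 replicate 1, gata5 against tbx5 turned to −1.51. The test over the 4 backgrounds together gave F = 2.90 for nppa (adjusted p = 0.732) and F = 3.56 for nppb (adjusted p = 0.642), with 0.143% of genes called by edgeR, and without the filter it called both (adjusted p = 1.18e-09 and 4.69e-04).

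**Figure D2:**
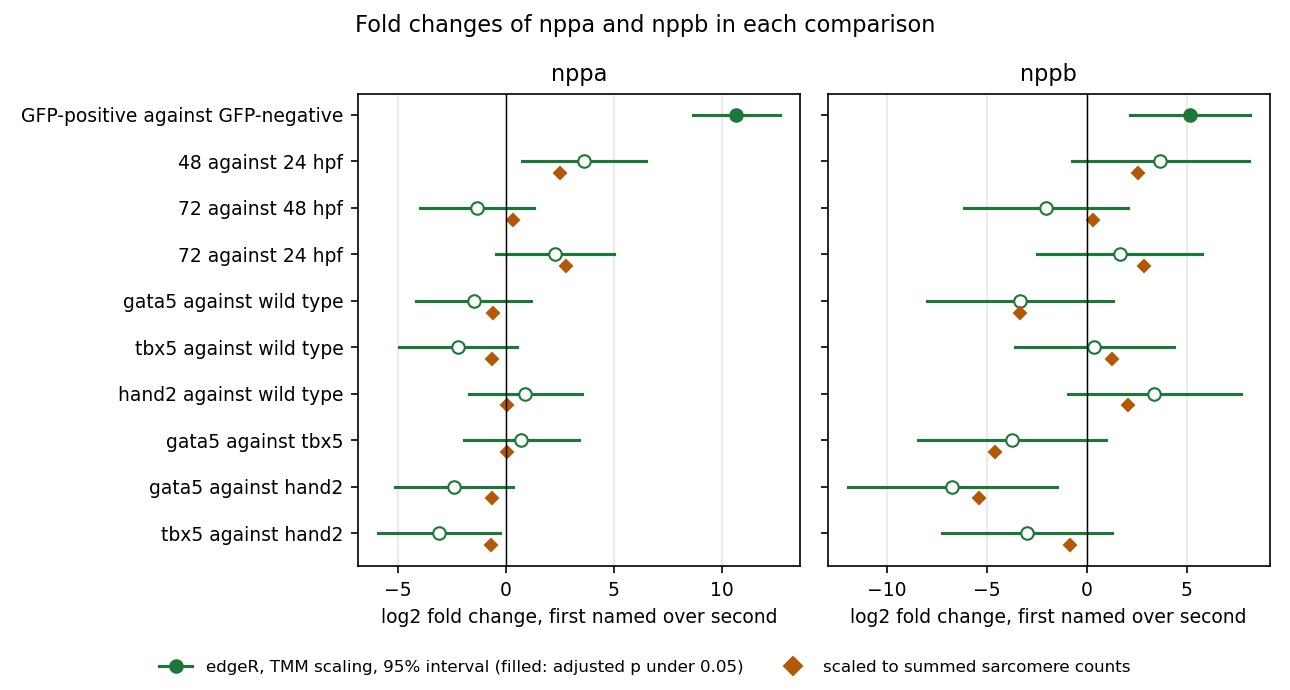
Log2 fold change of nppa (left) and nppb (right) in each of the 10 pairwise comparisons, the first named over the second. Green circles are edgeR estimates with 95% intervals, filled where the adjusted p is under 0.05. Orange diamonds are the estimates with libraries scaled to summed sarcomere counts, and none is drawn for the GFP comparison. The GFP comparison alone is filled (10.68 and 5.16), and the diamonds of nppa in backgrounds against wild type lie at −0.58 for gata5, −0.64 for tbx5 and 0.06 for hand2.

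Over the 6 GFP-positive groups, mean nppa ran from wild type at 48 hpf (98.3 CPM) through hand2 (71.7), wild type at 72 hpf (38.4), gata5 (13.7) and tbx5 (8.34) to wild type at 24 hpf (7.77). Each group overlapped its neighbour in this order, so no step of it exceeds the spread of its libraries. For nppb the order was hand2 (25.2 CPM), wild type at 48 hpf (9.92), tbx5 (3.14), wild type at 72 hpf (2.38), wild type at 24 hpf (0.735) and gata5 (0.226). Here hand2 stood clear of wild type at 48 hpf and that group clear of tbx5, while the later neighbours overlapped. These 2 steps were not tested, and the share of all genes with such steps was not computed.

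The sarcomere transcripts also ranged widely among the libraries of 72 hpf. Liver markers, 7 genes, summed to 462 to 4438 CPM in the backgrounds and to 1565 and 2122 CPM in wild type, and xanthophore markers to 14844 to 34061 CPM and to 9914 and 17852 CPM. The 9 leukocyte markers summed to 1652 and 2237 CPM in hand2 and to 470 to 1210 CPM in gata5 and tbx5, against 721 and 527 CPM in wild type. Between the fractions, 7 of 9 leukocyte markers were called higher in GFP-positive cells and 1 lower, and 5 of 7 liver markers higher and 0 lower. Over all genes 12.4% were called higher and 16.9% lower, and the part of these markers in the results was not tested. The sarcomere sum was 1267 and 225 CPM in gata5, 633 and 460 CPM in tbx5 and 4406 and 1555 CPM in hand2, against 1807 and 999 CPM in wild type at 72 hpf. Per 1000 sarcomere counts, nppa had 19.2 and 13.2 counts in gata5 libraries, 13.5 and 17.7 in tbx5 libraries and 22.7 and 27.9 in hand2 libraries, against 35.0 and 13.7 in wild type. The wild-type values enclosed all but 2 of the 6 others, and those 2 lay just below. In gata5 replicate 2 tpm4a and actc1a made up 58.2% of the sarcomere sum, against 18.6 to 33.4% in other GFP-positive libraries of 72 hpf. These genes also make up most of the sum in GFP-negative cells, and nppa against the other 11 genes was not tested. The mean log2 ratio of the 6 libraries differed from wild type by −0.24 (two-sided exact permutation p = 0.607, where 6 against 2 libraries can reach 0.0357, adjusted p = 0.729), and without wild-type replicate 1 by 0.44. Scaled in this way, the edgeR fold changes of nppa were −0.58 in gata5, −0.64 in tbx5 and 0.06 in hand2, smaller than under TMM scaling.

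nppb kept larger differences on the same scale. Per 1000 sarcomere counts it had 0.357 and 0 counts in gata5 libraries, 6.13 and 5.23 in tbx5 libraries and 6.72 and 13.4 in hand2 libraries, against 0 and 4.77 in wild type. All 4 libraries of tbx5 and hand2 were above both of gata5 and both of wild type. The gap to wild type was narrow, 5.23 in tbx5 against 4.77, and the share of all genes separating in this way was not computed. The mean log2 ratio of the 6 libraries exceeded that of wild type by 3.04 (exact permutation p = 0.214, adjusted p = 0.429). This difference was −0.73 without wild-type replicate 1 and 6.81 without wild-type replicate 2. The mean pools 3 backgrounds of unlike levels and describes none of them alone, and the permutation treats the 6 libraries as exchangeable. In gata5 replicate 2 the 2197 sarcomere counts would give 1.37 per 1000 for 3 nppb reads, so that library does not resolve the gata5 level.

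**Figure D3:**
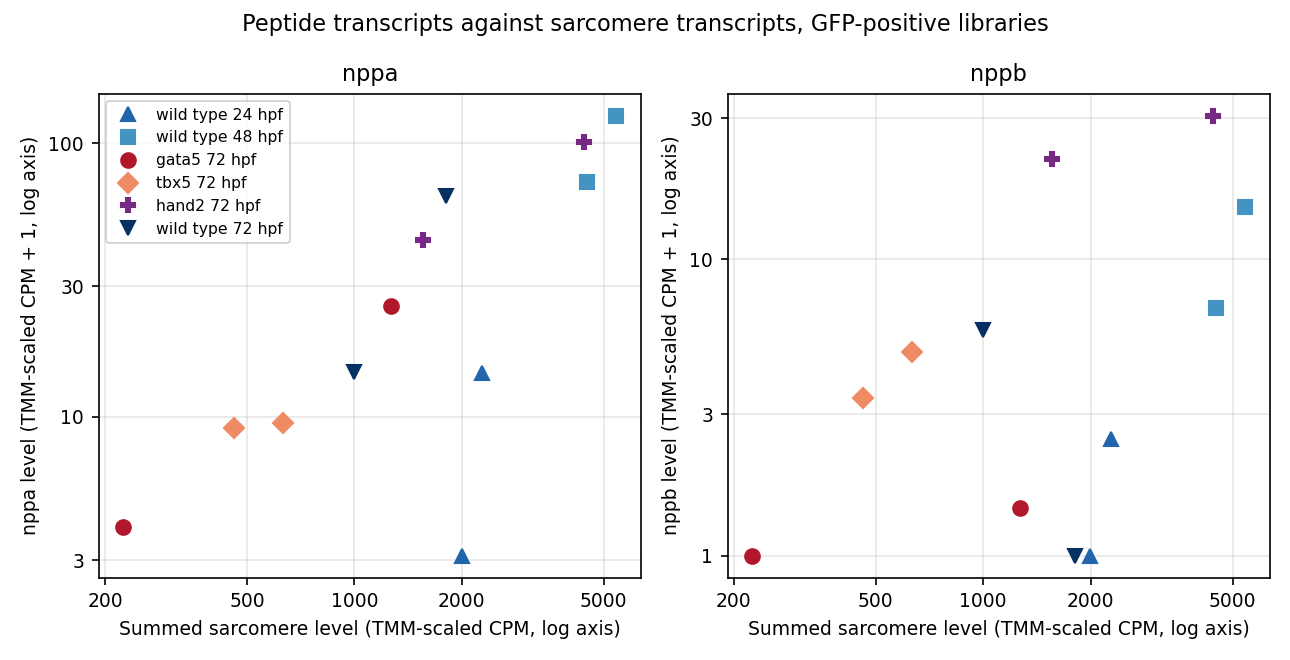
Level of nppa (left) and nppb (right) against the summed level of 13 sarcomere genes in the 12 GFP-positive libraries, each in TMM-scaled CPM on log axes, with 1 CPM added to the peptide. Symbols mark the stage and background of each library. nppa rises with the sarcomere sum in the 10 libraries of 48 and 72 hpf (r = 0.973) with both 24 hpf libraries below that line, while 3 libraries lie at 0 counts for nppb, drawn at 1.

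Across the GFP-positive libraries nppa was high where the sarcomere transcripts were high. The log2 levels of nppa and of the sarcomere sum correlated with r = 0.745 (permutation p = 0.00521, adjusted p = 0.0156) and rho = 0.699 (permutation p = 0.0138, adjusted p = 0.0349) over 12 libraries, and r was 0.638 without the 2 libraries farthest from the median. Without the 24 hpf libraries r was 0.973 and rho 0.988 (permutation p = 1e-05 each, the smallest the resamples can give). nppa and nppb correlated with r = 0.644 (permutation p = 0.0270, adjusted p = 0.0405) and rho = 0.662 (permutation p = 0.0233, adjusted p = 0.0349), falling to 0.504 without 2 libraries and to 0.558 without 24 hpf (adjusted p = 0.0947). nppb and the sarcomere sum gave r = 0.493 (permutation p = 0.105) and rho = 0.423 (permutation p = 0.173). The 3 correlations form the family of adjustment, and all levels in a library share its depth and scaling. The permutations shuffled libraries singly, so the replicates of a group counted as independent units, which they may not be. Whether r differed between the relations was not tested.

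Replicates within a group differed in the same direction. In all 6 groups the replicate with more sarcomere transcript also had more nppa, and the differences between replicates correlated with r = 0.807 (exact permutation p = 0.0611, adjusted p = 0.183, n = 6). For nppa and nppb the replicate differences gave r = 0.110 (exact permutation p = 0.811, adjusted p = 0.811, n = 6). Wild type at 72 hpf is the group where they parted, replicate 1 having 63.2 CPM of nppa with no nppb and replicate 2 having 13.6 CPM of nppa with 4.76 CPM of nppb.

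The balance between the peptides was given as the nppb share of their joint counts. Counts are not corrected for transcript length, so the share compares libraries and not the abundance of the peptides. It was 0% (95% Wilson interval 0 to 11.7%) and 9.86% (6.91 to 13.9%) at 24 hpf, and 10.1% (8.80 to 11.5%) and 7.58% (6.30 to 9.08%) at 48 hpf. At 72 hpf it was 1.82% (0.782 to 4.20%) and 0% (0 to 11.7%) in gata5, 31.3% (26.7 to 36.3%) and 22.8% (17.2 to 29.7%) for tbx5, and 22.8% (21.4 to 24.3%) and 32.5% (29.99 to 35.1%) in hand2, against 0% (0 to 0.281%) and 25.9% (22.5 to 29.6%) in wild type. Libraries of tbx5, hand2 and the second wild-type replicate thus shared one range. The first replicates of gata5 and wild type lay near 0, and the 48 hpf libraries lay between. The second gata5 replicate, with 29 nppa and 0 nppb counts, cannot be placed, since its interval reaches above both 48 hpf values. Intervals cover counting error only, since reads without molecular identifiers are not independent molecules. The log2 ratio of nppa to nppb counts, with 1 count added to each, averaged 2.68 ± 1.98 in the 6 libraries of gata5, tbx5 and hand2, against 5.96 ± 6.29 in the 2 of wild type (SD, exact permutation p = 0.179, adjusted p = 0.429). Without wild-type replicate 1, which has no nppb read, this difference turned from −3.28 to 1.17, and the mean pools backgrounds of unlike share. For the 4 libraries of 48 and 72 hpf it averaged 4.67 ± 3.93, against 4.03 ± 1.24 in the 2 of 24 hpf (SD, exact permutation p = 0.867, adjusted p = 0.867), and the difference of 0.64 turned to −1.27 without replicate 1 of 72 hpf and to −0.24 without replicate 2 of 24 hpf.

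**Figure D4:**
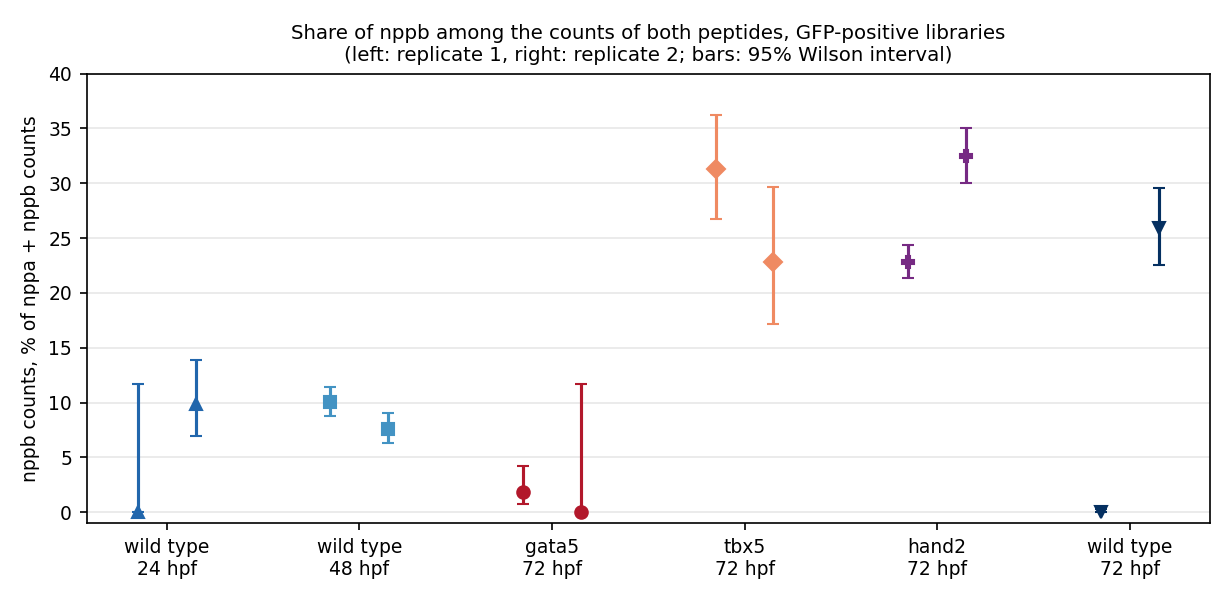
Share of nppb among the summed nppa and nppb counts in each GFP-positive library, in percent with 95% Wilson intervals that cover counting error only. Within a group the left symbol is replicate 1 and the right one replicate 2. Libraries of tbx5 and hand2 lie between 22.8 and 32.5%, those of gata5 at 1.82% or 0, and the wild-type replicates of 72 hpf at 0 and 25.9%.

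The genes nearest to nppa in pattern included several of striated muscle. By Pearson's r of log2 levels over the 12 GFP-positive libraries, the 8 nearest of 9885 genes with a symbol and a mean of at least 10 CPM were actn2b (0.908) and ldb3a (0.902), proteins of the Z-disc, PYGM (0.898), glycogen phosphorylase of muscle, abr (0.890), DUSP8 (0.888), a phosphatase of MAP kinases, the myosin heavy chains myh6 (0.880) and myh7ba (0.875), and RRAD (0.870), a small GTPase that restrains calcium channels. MYL7 (0.852), TNNI1 (0.824), MYBPC3 (0.817) and TNNT2 (0.814) of the sarcomere list followed at ranks 10, 15, 18 and 21, and cmlc1 (0.806) and tnnc1a (0.784) at 24 and 34. Lower in that list were MYH7 at rank 59, actc1a at 131, tpm4a at 648 and the other ID named MYH6 (ENSDARG00000079564) at 693. For nppb the 8 nearest of 9886 genes included DES (0.853), the muscle intermediate filament desmin, SLC25A33 (0.838), MYO9B (0.836), MAP2K7 (0.826), RGS6 (0.823), slc39a1 (0.821) and SNX27 (0.808), with nppa at rank 167. The lists of 8 share no gene, and these values describe 12 libraries of 6 groups without a test.

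The other natriuretic peptide genes were read at low levels. nppal averaged 0.772 ± 1.16 CPM in GFP-positive and 1.29 ± 1.03 CPM in GFP-negative libraries (SD, n = 12 and 6; log2 fold change −2.83 ± 1.93, adjusted p = 0.30). nppc, a C-type peptide gene, was at 0 in all 12 GFP-positive libraries and between 0.0921 and 3.55 CPM in the GFP-negative ones, and nppcl reached 2.46 CPM in GFP-positive and 3.14 CPM in GFP-negative libraries. These 2 genes fell under the filter on low counts. Of the peptide genes 2 of 3 tested, nppa and nppb, rose in GFP-positive cells and 0 fell, where 12.4% of all genes rose and 16.9% fell. With all 5 in the test, edgeR without the filter and DESeq2 each called 2 higher and 1 lower. Without the filter edgeR called 2397 of all 28298 genes higher and 3804 lower. With sarcomere scaling 1 of 3 was called higher and 1 lower, where 125 of all 21729 genes rose and 17157 fell.

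Of the 4 receptor genes 0 rose and 2 fell in GFP-positive cells, beside the same 12.4% and 16.9% of all genes, with a median log2 fold change of −1.01, beside −0.26 over all genes. npr1a, a guanylyl cyclase receptor for the cardiac peptides, averaged 18.6 ± 20.2 CPM in GFP-positive and 27.8 ± 6.93 CPM in GFP-negative libraries (−1.22 ± 0.35, adjusted p = 0.0138). By condition its GFP-positive level was the higher one at 24 hpf (48.7 and 69.5 CPM, against 33.5 CPM in GFP-negative cells), lay on both sides of the GFP-negative level in wild type at 72 hpf (17.4 and 22.9 CPM, against 20.3 CPM) and was the lower one in the other 4 conditions. npr2, the receptor for C-type peptides, averaged 11.5 ± 7.04 and 35.5 ± 16.7 CPM in these fractions (−1.87 ± 0.61, adjusted p = 0.0315). Neither npr1b (0.33 ± 0.73, adjusted p = 0.777) nor the clearance receptor NPR3 (−0.80 ± 0.40, adjusted p = 0.142) was called by edgeR. Within wild-type GFP-positive cells npr1a stood at 48.7 and 69.5 CPM at 24 hpf, 6.39 and 3.31 CPM at 48 hpf and 17.4 and 22.9 CPM at 72 hpf, so both 24 hpf libraries were above the others, and it fell at 48 against 24 hpf by edgeR (−3.65 ± 0.63, adjusted p = 0.00109). The receptor calls between fractions are not firm: 1 to 2 of the 4 genes were called lower as single libraries were left out, 1 of them without gata5 replicate 1, tbx5 replicate 2, hand2 replicate 2 or either wild-type library of 72 hpf, and 0 with the replicate number as a block.

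Of 6 genes for proteases that process or degrade the peptides, 2 rose and 1 fell in GFP-positive cells (12.4% and 16.9% of all genes, median log2 fold change 0.22). With libraries scaled to sarcomere counts 0 rose and 5 fell, where 125 of all 21729 genes rose and 17157 fell. MMEL1, a relative of neprilysin, averaged 75.0 ± 54.7 CPM in GFP-positive and 11.7 ± 7.05 CPM in GFP-negative libraries (2.16 ± 0.70, adjusted p = 0.0325), and IDE, the insulin-degrading enzyme that can also cut natriuretic peptides, 109.6 ± 24.7 and 81.7 ± 17.9 CPM (0.43 ± 0.15, adjusted p = 0.0357). The higher calls number 1 in place of 2 without hand2 replicate 1 or 2, tbx5 replicate 1, replicate 2 of 48 hpf or replicate 1 of wild type at 72 hpf, and 0 without the filter on low counts. PCSK6, a proprotein convertase, fell (−1.39 ± 0.38, adjusted p = 0.0108). CORIN, the protease that cuts the atrial peptide precursor in mammals, had 14.6 ± 9.97 and 7.31 ± 4.08 CPM and was not called (0.67 ± 0.53, adjusted p = 0.373), nor was either gene ID named FURIN (0.00 ± 0.18 and −0.19 ± 0.20). Of 10 genes listed as cGMP effectors 0 rose and 5 fell, again beside 12.4% and 16.9% of all genes, with a median of −2.38. The 5 include both gene IDs named CNGA3, and whether genes of this list act downstream of the peptide receptors was not tested. PDE5A, which breaks down cGMP, averaged 3.15 ± 2.28 and 19.0 ± 11.2 CPM (−3.17 ± 0.71, adjusted p = 0.00282), and prkg1a, a cGMP-dependent kinase, 13.4 ± 6.80 and 30.4 ± 7.70 CPM (−1.32 ± 0.25, adjusted p = 8.69e-04). PDE3A (−1.03 ± 0.31, adjusted p = 0.0198) and both IDs named CNGA3, a cyclic nucleotide-gated channel, fell as well (−3.56 ± 1.26 and −2.76 ± 0.89, adjusted p = 0.0448 and 0.0267). With the replicate block 3 of the 10 were called lower.

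**Figure D5:**
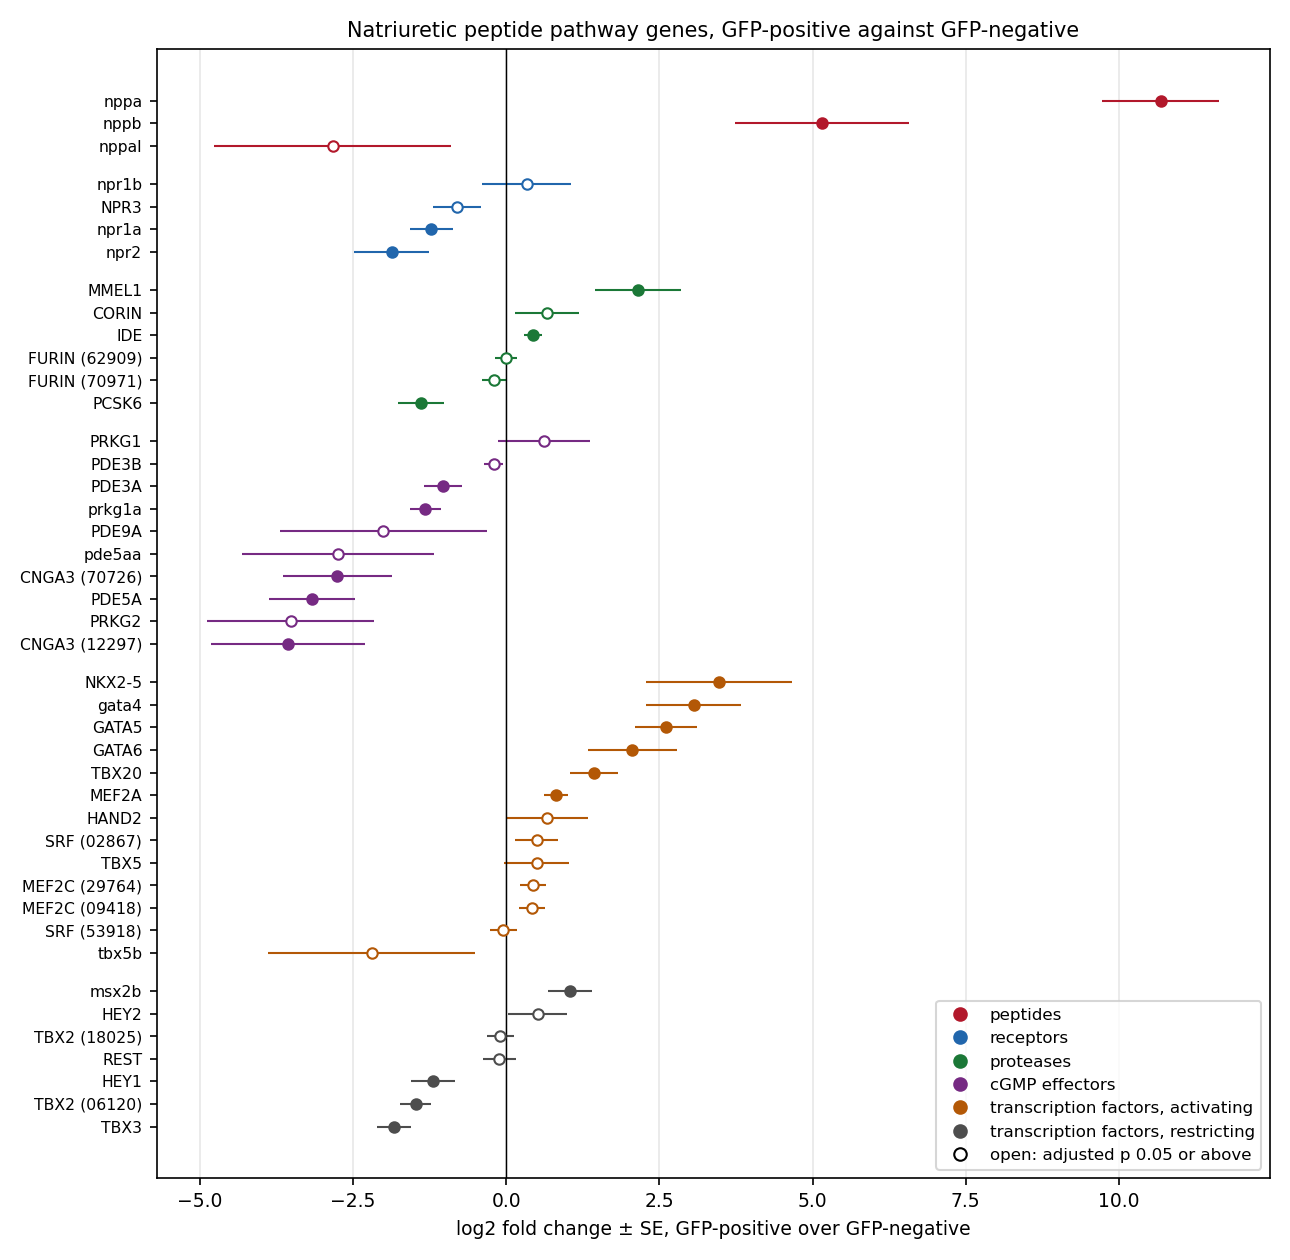
Log2 fold change ± SE of the tested pathway genes, GFP-positive over GFP-negative cells, grouped by role, filled where edgeR's adjusted p is under 0.05. Digits after a symbol are the last ones of its gene ID where 2 IDs share the symbol. nppa (10.68) and nppb (5.16) lie far to the right, no receptor or cGMP effector is filled on the right side, and 6 of 13 activating factors are.

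Transcription factors known to switch on natriuretic peptide genes included 6 that rose in the GFP-positive cells. Of 13 genes 6 rose and 0 fell (12.4% and 16.9% of all genes), with a median log2 fold change of 0.66, whereas 0 rose and 8 fell with libraries scaled to sarcomere counts, a scaling that puts the median of all genes at −3.09: gata4 (3.06 ± 0.78, adjusted p = 0.00813), GATA5 (2.61 ± 0.50, adjusted p = 0.00100), GATA6 (2.06 ± 0.73, adjusted p = 0.0459), NKX2-5 (3.47 ± 1.19, adjusted p = 0.0372), TBX20 (1.43 ± 0.39, adjusted p = 0.0112) and MEF2A (0.82 ± 0.19, adjusted p = 0.00396). Of the 6 calls, 4 to 6 were made as single libraries were left out, 4 of them without tbx5 replicate 2 or either library of 48 hpf, and 4 without the filter on low counts. TBX5 (0.49 ± 0.54, adjusted p = 0.534) and HAND2 (0.66 ± 0.67, adjusted p = 0.503) were not called. Of 7 tested factors that hold the genes back in the atrioventricular canal and elsewhere, 1 rose and 3 fell, beside those 12.4% and 16.9% of all genes (median −0.11). The factor that rose was msx2b (1.04 ± 0.35, adjusted p = 0.0342), a call lost without gata5 replicate 1, tbx5 replicate 2, hand2 replicate 1 or replicate 2 of 48 hpf, and under the block, without the filter and with sarcomere scaling. Those that fell were TBX3 (−1.83 ± 0.28, adjusted p = 1.39e-04), the ID ENSDARG00000006120 named TBX2 (−1.48 ± 0.25, adjusted p = 3.91e-04) and HEY1 (−1.19 ± 0.36, adjusted p = 0.0200). REST, which silences the peptide genes in adult mammalian muscle, was not called (−0.11 ± 0.27, adjusted p = 0.793).

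Of 18 tested genes that respond to stretch or stress of the heart, 5 rose and 0 fell in GFP-positive cells (12.4% and 16.9% of all genes; median 0.97). DESeq2, with a median log2 fold change of −0.51 over all genes, called 8 of 20 higher and 1 lower. With sarcomere scaling 1 rose and 9 fell, where 125 of all 21729 genes rose and 17157 fell. HSPB7, a small chaperone of muscle, averaged 46.5 ± 43.5 CPM in GFP-positive and 0.516 ± 0.688 CPM in GFP-negative libraries (6.08 ± 0.86, adjusted p = 1.34e-04 by edgeR). The actin-binding xirp1 (ENSDARG00000030722) rose by 1.98 ± 0.50 (adjusted p = 0.00701), XIRP2 (ENSDARG00000071113) by 0.96 ± 0.28 (adjusted p = 0.0149), ACTA1 (ENSDARG00000055618), an actin of striated muscle that is also on the list of skeletal muscle markers, by 1.81 ± 0.25 (adjusted p = 6.25e-05) and rcan1a, a regulator of calcineurin, by 0.86 ± 0.22 (adjusted p = 0.00769). The flow-responsive factor klf2a averaged 23.5 ± 17.8 and 40.9 ± 24.2 CPM and was not called (−0.78 ± 0.36, adjusted p = 0.120). Some upper-case symbols are shared by paralogs, and how reads divide between close copies is not certain.

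Between stages, over the 6 lists other than the peptides, 60 genes were tested, and 3 were called higher and 2 lower at 48 against 24 hpf (over all genes 9.06% higher and 4.29% lower), 5 higher and 3 lower at 72 against 24 hpf (10.1% and 5.6%), and 0 at 72 against 48 hpf (0.488% in either direction). In the last of these edgeR gave 13 genes an unadjusted p under 0.05, as it did 11.4% of all genes, limma called 0 and DESeq2 called 1 higher and 5 lower. GATA6 was lower at 72 than at 24 hpf (−2.50 ± 0.59, adjusted p = 0.0101), as were TBX20 (−2.02 ± 0.47, adjusted p = 0.00846) and MEF2C (ENSDARG00000009418, −1.46 ± 0.30, adjusted p = 0.00368), calls that were not made with sarcomere scaling, while klf2a was higher (2.0 ± 0.53, adjusted p = 0.0190). GATA6 stood at 82.6 and 45.6 CPM at 24 hpf, 40.3 and 80.5 CPM at 48 hpf and 14.8 and 8.06 CPM at 72 hpf. Both 72 hpf values of GATA6 were below those of 24 hpf. Both 72 hpf values of nppa were above, but the nearest stood at 13.6 against 13.4 CPM. For nppa edgeR did not call 72 against 24 hpf (adjusted p = 0.241). Whether the 2 genes moved apart was not tested, and the share of all genes that separate in these ways was not computed.

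None of the 60 genes was called by edgeR in any of the 6 comparisons of backgrounds, where 0.00421 to 0.105% of all genes were called. At an unadjusted p under 0.05 there were 14 genes in gata5 (9.64% of all genes), 7 in tbx5 (8.34%) and 16 in hand2 (9.09%) against wild type, 5 between gata5 and tbx5 (5.32%), 14 between gata5 and hand2 (6.02%) and 10 between tbx5 and hand2 (2.74%). limma called 1 gene, lower in hand2 than in wild type. DESeq2 called 0 higher and 4 lower in gata5, 1 higher and 1 lower in tbx5, and 3 higher and 1 lower in hand2, each against wild type. It called 0 higher and 2 lower for gata5 against tbx5, 1 and 9 for gata5 against hand2, and 1 and 1 for tbx5 against hand2. DESeq2 tested 52 of the genes in the last comparison and 58 in the others. Its calls over all genes are given below, with the dependence on processing. GATA6 stood at 11.8 and 8.50 CPM in gata5, 27.0 and 14.6 CPM in tbx5 and 80.8 and 26.0 CPM in hand2, against 14.8 and 8.06 CPM in wild type, and gata4 at 4.43 and 11.9, 20.1 and 7.59, and 88.8 and 33.7 CPM in these backgrounds, against 15.2 and 15.3 CPM. For both factors the 2 hand2 libraries were above the wild-type ones, but the share of all genes that separate in this way was not computed. By edgeR neither was called for hand2 against wild type (GATA6 2.22 ± 0.59, adjusted p = 0.221, and gata4 2.0 ± 0.58, adjusted p = 0.275).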

How the data were processed

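Per the labels' protocols, RNA of sorted zebrafish embryo cells was purified on columns from Trizol, treated with DNase and turned into libraries by the SMARTer low input kit. The deposited counts are whole reads per Ensembl gene ID, not normalized. The authors also deposited log2 values, regularized by DESeq2. Per the submitters' processing notes, Trimmomatic 0.36, STAR 2.5, SAMtools 1.4 and build GRCz10 were used. How reads were counted, on which annotation and with which strand is not given in the sources used here, so reads of overlapping or antisense genes cannot be told apart.

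Counts were tested with edgeR 4.0.16 (R 4.3.3), after TMM scaling and filtering by filterByExpr (minimum count 10, minimum total 15), by the two-sided robust quasi-likelihood F test, adjusted by Benjamini-Hochberg over all genes tested. The fraction comparison used 18 libraries with condition as a term (21729 genes), the stage and background comparisons the 12 GFP-positive libraries (23767 genes). The test of the GFP effect by condition assumes that the lone GFP-negative libraries vary like the GFP-positive groups. CPM are TMM-scaled counts. The SE of an edgeR log2 fold change was back-calculated as its size over the square root of F. The 95% intervals of fold changes were built from this SE. They are symmetric by construction and only approximate where a group has few or no reads. Ratios used 1 added count, correlations log2(CPM + 1) with 100000 resamples. Folds against 0 reads use 3 counts over the GFP-negative library. Alternatives were RLE scaling, no filter, a replicate block, scaling to sarcomere counts, DESeq2 1.42.0, limma 3.58.1 on the log2 values, another pseudocount and leaving out each library. The fits were tested on simulated data.

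The members and gene lists were chosen with earlier results of these data known. Of 150 list entries 18 matched no gene. The genes named are the members, list genes, the 8 of most like pattern for each member and the flanking genes. Replicates of a group differed beyond counting noise (chi-square per degree of freedom 41.7 to 194), so none was merged. One gene that the rule for named genes picks as near to nppb is not reported here.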

Additional observations from a re-analysis of the deposited data

How the results depend on the processing

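Of 514 recomputed values for the pair, 485 kept their direction and side of the threshold. Most main values were not called, so a value that stayed uncalled counts as kept, whatever its change in size. F values have no direction to lose, so the count does not measure how stable the estimates are. Without a filter on low counts, edgeR made 11 further calls with nearly the same estimates: nppa at 48 against 24 hpf (3.61), 72 against 24 hpf (2.29), tbx5 against wild type (−2.22), gata5 against hand2 (−2.41) and tbx5 against hand2 (−3.12), nppb at 48 against 24 hpf (3.68) and gata5 against hand2 (−6.75), and the joint tests of stage (F = 26.8 and 4.63) and background (F = 18.5 and 8.83) for nppa and nppb. The cause was not tested. DESeq2 (3.56) and limma (3.51) also called nppa at 48 against 24 hpf. Scaling to sarcomere counts ended the GFP call of nppb (2.52, adjusted p = 0.208) and turned 72 against 48 hpf to 0.32 for nppa and 0.29 for nppb. The correlation of nppa and nppb lost its call with the deposited log2 values (r = 0.616) and without 24 hpf (r = 0.558).

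As single libraries were left out, 343 of 354 values kept direction and call, with the same limit to what the count measures. nppb ranged from −6.78 to 8.53 at 72 against 24 hpf, −8.57 to 5.09 in gata5 and −0.61 to 8.82 in tbx5 against wild type, and F over stages from 0.778 to 9.05. nppa ranged from −1.51 to 1.55 for gata5 against tbx5. With no change of sign or call, nppa ranged from 2.83 to 5.52 at 48 against 24 hpf, −2.82 to −0.60 at 72 against 48 hpf, 0.80 to 4.20 at 72 against 24 hpf and −4.62 to −1.56 for gata5 against hand2, and nppb from 2.71 to 10.54 at 48 against 24 hpf, −10.45 to −1.03 at 72 against 48 hpf, −8.96 to −2.78 for gata5 against tbx5 and −11.97 to −5.79 for gata5 against hand2. The log2 ratio of nppa to nppb ranged from −7.73 to 1.17 for backgrounds and −1.27 to 1.69 for stages, and the level per sarcomere transcript in backgrounds from −0.92 to 0.44 for nppa and −0.73 to 6.81 for nppb.

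With the replicate number as a block the GFP effect was 11.05 for nppa and 5.10 for nppb (adjusted p = 0.0341), no call of either gene changed, and 4512 genes were called in place of 6363. All GFP-negative libraries are numbered replicate 1, so the block is partly confounded with GFP status. The blocked GFP effect, also that of the listed genes, thus rests on the GFP-positive libraries of replicate 1. Same-numbered libraries of different groups deviated together with correlations of −0.164 to 0.219 over 15 pairs of groups, so the numbers are not taken to pair them.

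Calls over all genes moved more. Against wild type, gata5, tbx5 and hand2 had 25, 11 and 12 called genes, against 514, 407 and 507 without the filter, 989, 712 and 802 by DESeq2, 123, 17 and 59 by limma and 633, 539 and 604 without wild-type replicate 1. At 72 against 48 hpf the count was 116, and 1022, 1314 and 342 by no filter, DESeq2 and limma, and 859 (210 higher and 649 lower, in place of 62 and 54) without wild-type replicate 1 of 72 hpf; for gata5 against tbx5 9, and 350, 288 and 29; for gata5 against hand2 2, and 483, 266 and 14; for tbx5 against hand2 1, and 174, 61 and 3. DESeq2 called 5163 genes in place of 3173 at 48 against 24 hpf and 6440 in place of 3743 at 72 against 24 hpf. Without the filter the joint test of background called 1054 genes in place of 34 and the GFP effect by condition 1100 in place of 485. Sarcomere scaling moved the median of all genes from −0.26 to −3.09 between fractions, with 125 genes higher and 17157 lower in place of 2699 and 3664, and it moved the medians by over 0.1 in every pairwise comparison, to 1.66, 1.32 and −0.69 in gata5, tbx5 and hand2 against wild type. nppb had 0 reads in 3 of 12 GFP-positive libraries, and there 3 counts would have been 0.139 to 0.307 CPM.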

Other observations

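The genes on either side of the pair in RefSeq's gene order had higher mean levels in GFP-negative cells. Over all genes the median log2 fold change was −0.26, and no test of prdm16 or clcn6 is given. prdm16, beyond nppal, averaged 57.0 ± 39.9 CPM in GFP-positive and 98.3 ± 15.6 CPM in GFP-negative libraries (SD, n = 12 and 6). Its GFP-positive level was the higher one in replicate 2 of 24 and of 48 hpf and in hand2 replicate 1, and the lower one in all others. clcn6, next to nppa, averaged 9.61 ± 3.30 CPM in GFP-positive and 16.6 ± 5.18 CPM in GFP-negative libraries. In hand2 GFP-positive libraries, where nppb was at 29.6 and 20.8 CPM, clcn6 stood at 11.3 and 5.83 CPM, against 13.4 CPM in GFP-negative cells. In wild type at 72 hpf it stood at 9.57 and 8.09 CPM, above the 7.91 CPM of GFP-negative cells. The GFP-negative level of clcn6 was the higher one in all other conditions.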
